A study of Mus musculus with 20 samples.

Results

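Haemoglobin, erythroid, neutrophil and acute-phase transcripts were followed mouse by mouse in 20 RNA-seq libraries of mouse cerebellum. The 8 genes were taken as listed and matched by symbol to the Ensembl identifiers of the read count table, and all 8 of the 55401 genes in that table were found. They are Hba-a1 (ENSMUSG00000069919) and Hba-a2 (ENSMUSG00000069917), which encode alpha globin, Hbb-bs (ENSMUSG00000052305) and Hbb-bt (ENSMUSG00000073940), which encode adult beta globin, Alas2 (ENSMUSG00000025270), S100a8 (ENSMUSG00000056054), S100a9 (ENSMUSG00000056071) and Lcn2 (ENSMUSG00000026822). The study asked whether an adeno-associated virus (AAV) that carries a short hairpin RNA (shRNA) against the CAG repeat expanded in mutant Atxn7 was tolerated and whether it altered gene expression in mice that model spinocerebellar ataxia type 7 (SCA7), a polyglutamine disease of the cerebellum and retina.

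All mice were of the strain C57BL/6J, and each library came from the whole cerebellum of 1 mouse. In the libraries labelled 9w, 3 wild-type (WT) mice had received the vector with the hairpin shA4 (AAV-shA4) and 3 WT mice were untreated. In the libraries labelled 25w, 5 SCA7 140Q/5Q knock-in mice had received AAV-shA4, 5 SCA7 140Q/5Q knock-in mice had received the control hairpin shSCR (AAV-shSCR), and 4 WT mice were untreated. By the study's methods the vector was of serotype PHP.eB, also expressed a green fluorescent protein and was injected behind the eye, and untreated mice received saline. No WT mice with AAV-shSCR and no untreated SCA7 mice are among the libraries, so that genotype and vector cannot be told apart in the comparisons of SCA7 with WT mice. The labels do not say from when the weeks were counted. The study counts those of 9w from the injection and gives the SCA7 mice a time after injection shorter than the label 25w, so that 9w and 25w are used here as labels only. Whether the mice were perfused before the cerebellum was taken for RNA is not given in the sources used here.

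Red blood cells carry oxygen on haemoglobin, a tetramer of alpha and beta chains around haem, and young red cells still hold globin mRNA and the mRNA of Alas2, the erythroid form of the enzyme that starts haem synthesis. S100a8 and S100a9 form calprotectin, the main cytosolic protein of neutrophils, which binds zinc and manganese and acts as an alarm signal at sites of inflammation. Lcn2 encodes lipocalin 2, which binds bacterial siderophores and so withholds iron from microbes. It is stored in neutrophil granules and is also made by astrocytes and blood vessel cells of the brain as part of the acute-phase response to inflammation.

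The alpha genes lie on chromosome 11 and the beta genes on chromosome 7. Upstream sequences of the globin genes and of Alas2 are shown because these transcripts varied together between mice (below). Hbb-bt is shown beside Hbb-bs because the motifs found differ between the beta genes (below). The 250 bases before the RefSeq transcription start on GRCm38.p6 are written 5′ to 3′ on the strand of the gene, with 4 motifs in capitals on either strand: AGATAA or TGATAA (letters bound by GATA factors), the letters CACCC, the letters CCAAT, and TATAA. Hbb-bs is at chr7:103827929-103828178 (minus strand), Hbb-bt at chr7:103813924-103814173 (minus strand), Hba-a1 at chr11:32283422-32283671 (plus strand) and Alas2 at chrX:150547167-150547416 (plus strand).
Hbb-bs: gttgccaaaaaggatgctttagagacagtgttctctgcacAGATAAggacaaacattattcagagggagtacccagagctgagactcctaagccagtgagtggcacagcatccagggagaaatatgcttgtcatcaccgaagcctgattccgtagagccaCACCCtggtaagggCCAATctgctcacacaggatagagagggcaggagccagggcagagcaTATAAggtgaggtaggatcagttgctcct
Hbb-bt: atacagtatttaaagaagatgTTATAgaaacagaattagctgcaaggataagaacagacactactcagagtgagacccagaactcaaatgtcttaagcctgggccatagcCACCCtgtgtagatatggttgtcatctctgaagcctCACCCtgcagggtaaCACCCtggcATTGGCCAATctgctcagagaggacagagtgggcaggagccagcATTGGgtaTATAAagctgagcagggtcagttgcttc
Hba-a1: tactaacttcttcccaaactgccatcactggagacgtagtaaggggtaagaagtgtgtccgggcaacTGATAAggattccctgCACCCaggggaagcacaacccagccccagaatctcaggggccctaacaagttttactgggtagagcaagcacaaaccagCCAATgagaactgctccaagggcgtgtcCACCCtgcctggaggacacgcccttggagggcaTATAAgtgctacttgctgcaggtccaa
Alas2: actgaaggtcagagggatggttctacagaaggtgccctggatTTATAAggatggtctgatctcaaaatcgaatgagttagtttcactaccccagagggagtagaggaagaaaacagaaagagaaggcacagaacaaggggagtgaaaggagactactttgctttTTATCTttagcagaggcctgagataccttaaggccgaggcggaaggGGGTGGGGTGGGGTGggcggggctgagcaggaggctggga

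In windows of 300 bases, which add the 50 bases after the start, AGATAA or TGATAA was found in 18.6% of 32851 RefSeq promoters, CACCC in 57.5%, CCAAT in 37.4%, TATAA in 24.9% and all 4 together in 1.14%. Hba-a1, Hba-a2 and Hbb-bs held all 4 motifs. Hbb-bt held the others but neither AGATAA nor TGATAA, and Alas2 held the others but no CCAAT. The windows of Hba-a1 and Hba-a2 shared an unbroken run of 297 bases, whereas the longest run shared by Hbb-bs and Hbb-bt was 14 bases. Any single difference ends such a run, so its length does not measure how alike the windows are. The mRNAs were compared by another measure. Windows of 49 bases were used, the greatest length of a read after trimming, and shorter reads were also kept. Of all such windows in the annotated transcripts, 72.4% of those of Hba-a1 and 89.5% of those of Hba-a2 also occurred in the other alpha gene. For the beta genes, 53.3% of those of Hbb-bs and 58.3% of those of Hbb-bt occurred in the other one. How reads that match both genes were counted is not given in the sources used here, so the split between paralogs is uncertain. No window of Alas2, S100a8, S100a9 or Lcn2 occurred in another gene.

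The libraries held 31465586 to 54570503 counted reads, and the 9w libraries with AAV-shA4 (36245752 to 39208298) were all shallower than the untreated ones (47455917 to 49212593). Levels are given below as CPM, counts scaled to the library size after TMM scaling between libraries. The hairpin shA4 was designed against expanded CAG repeats, which Atxn7 of WT mice lacks, and the counts do not separate the alleles of Atxn7. Its log2 fold change with AAV-shA4 was 0.01 ± 0.07 (SE) in WT mice and -0.04 ± 0.05 against AAV-shSCR, so it checks no label here. Of 8 genes of Purkinje and granule cells, which summed to between 4963 and 7484 CPM, 3 (Pcp2, Calb1 and Car8) were called lower in both comparisons of SCA7 with WT mice, where the call of Calb1 with AAV-shA4 was lost without AAV-shA4 replicate 1 or WT replicate 2. The summed level of 8 choroid plexus genes ran from 49.8 to 3297 CPM within the SCA7 AAV-shA4 group alone. In WT AAV-shA4 replicate 3 the 4 MHC class II genes summed to 118.7 CPM, against 13.3 to 45.9 CPM in the other 19 libraries, and in that mouse none of the 8 genes was the highest or lowest of the series.

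The 8 transcripts were scarce in every cerebellum. Hbb-bs was the most abundant globin mRNA, with a mean of 3.83 CPM over the 20 mice and a range of 1.24 to 16.3 CPM. Hba-a1 averaged 1.09 CPM (0.234 to 4.19), Hbb-bt 0.802 CPM (0.234 to 2.73) and Hba-a2 0.603 CPM (0.0521 to 2.12). Alas2 averaged 0.327 CPM and had no read in 1 library, SCA7 AAV-shSCR replicate 5, where 3 reads, the limit that a count of 0 allows, would be 0.0781 CPM. S100a9 averaged 1.29 CPM (0.321 to 5.08), S100a8 0.788 CPM (0.0268, a single read, to 3.03) and Lcn2 2.36 CPM (0.145 to 22.6). Per kilobase of median transcript length, the mean level was 9.41 CPM per kb for Hbb-bs, 2.72 for Lcn2, 2.51 for S100a9, 1.83 for Hba-a1, 1.60 for S100a8, 1.15 for Hba-a2, 1.14 for Hbb-bt and 0.266 for Alas2. With the longest transcript as length, Hbb-bs was still first, at 6.10 CPM per kb, and the value of Lcn2 was 1.71, below the 2.49 of S100a9. Of the pooled reads on both beta genes 82.4% were on Hbb-bs, 64.3% of those on both alpha genes were on Hba-a1, and 62.2% of those on both calprotectin genes were on S100a9.

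**Figure D1:**
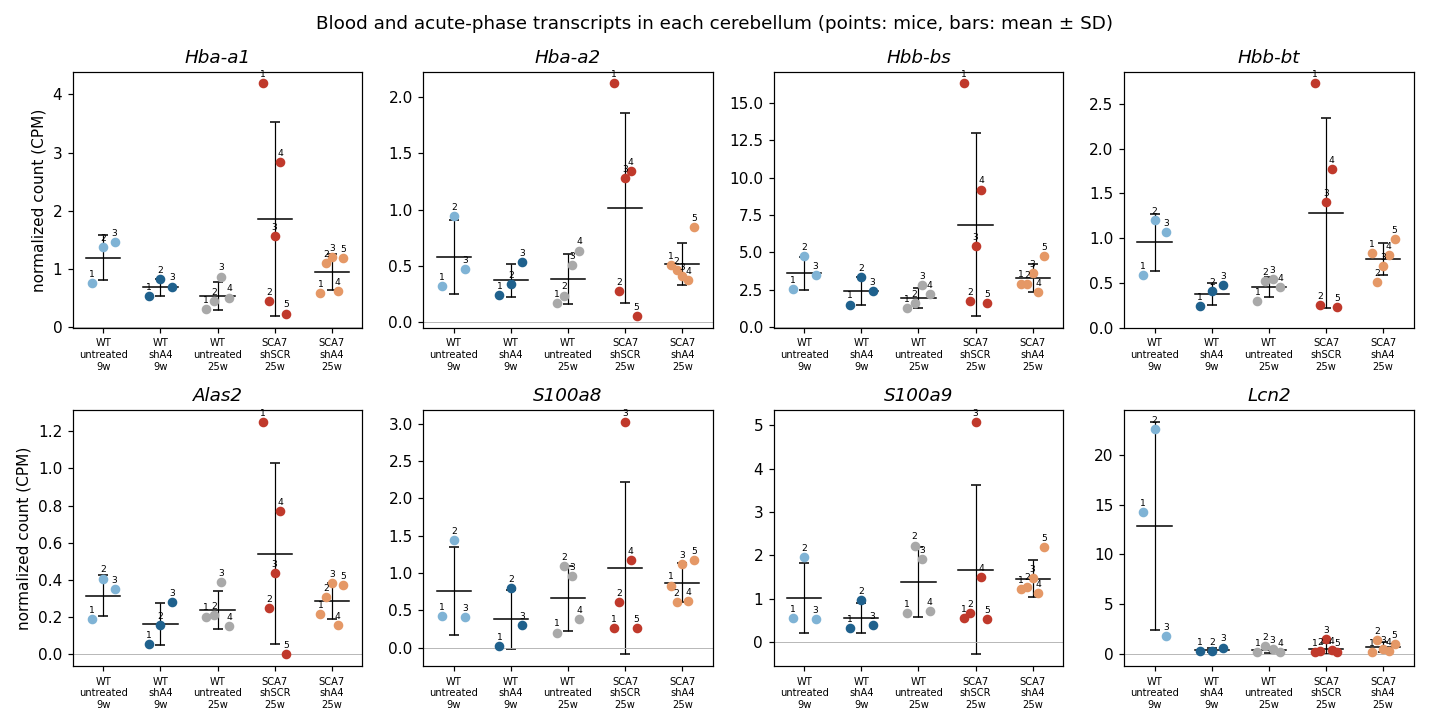
Level of the 8 transcripts in each cerebellum, in CPM on linear axes that differ between panels. Points are mice with their replicate number, horizontal bars the mean and error bars the SD of each of the 5 groups. The AAV-shSCR group holds both the highest and some of the lowest globin levels (Hbb-bs 16.3 and 1.61 CPM), and Lcn2 is high in untreated WT mice at 9w.

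Pooled over the groups, mice within a group differed more in these transcripts than in most genes. The measures below do not show single groups, and the groups were not alike. The highest Hbb-bs level was 10.1-fold the lowest with AAV-shSCR and 1.87-fold to 2.25-fold in the other groups. The SD between mice within groups, on the log2(CPM + 0.1) scale, lay between 0.80 for Hbb-bt and 1.11 for Lcn2, and it was above that of 99.2% (Hbb-bt) to 99.6% (Lcn2) of the 14952 genes ranked (98.2% to 99.7% with a pseudocount of 0.5 CPM). Scarce genes vary more from counting alone, so the biological coefficient of variation of edgeR, which leaves counting error out, was read as well. In the 14 late libraries it was 0.513 to 0.659 for the 8 genes, where the trend of all genes at the same levels was 0.159 to 0.243. In the 6 early libraries it was 0.217 for Hba-a1, 0.235 for both beta genes, 0.246 for Alas2 and 0.299 for Hba-a2, where the trend was 0.149 to 0.216, and it was 0.429 for S100a9, 0.574 for S100a8 and 0.518 for Lcn2, where the trend was 0.114 to 0.207.

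**Figure D2:**
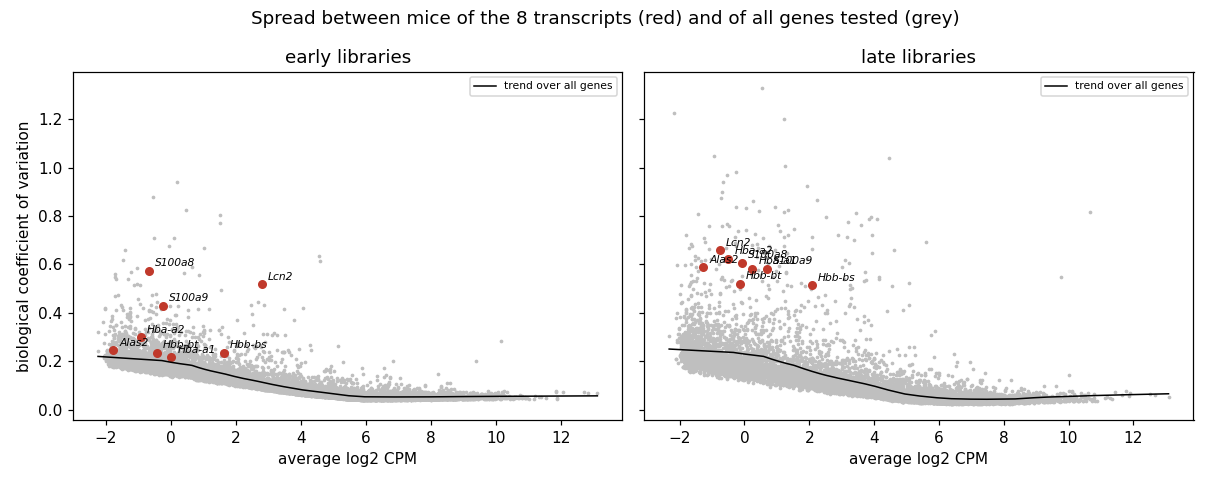
Biological coefficient of variation of every gene tested against its average log2 CPM, in the 6 early (9w) and 14 late (25w) libraries. Grey points are genes, the line is the trend over all genes and red points are the 8 transcripts. In the late libraries all 8 lie between 0.513 and 0.659, above the trend.

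The globins separated the AAV-shSCR mice from each other more than from the other groups. Hbb-bs was at 16.3, 1.76, 5.40, 9.21 and 1.61 CPM in SCA7 AAV-shSCR replicates 1 to 5, a mean of 6.86 ± 6.13 (SD, n = 5). It was at 2.91, 2.89, 3.59, 2.35 and 4.75 CPM in the 5 SCA7 AAV-shA4 mice and at 1.24, 1.62, 2.79 and 2.19 CPM in the 4 untreated WT mice of 25w. AAV-shSCR replicates 1, 3 and 4 lay above every other mouse of 25w, while replicates 2 and 5 lay within the range of the WT mice. The 9w mice fell between these extremes, at 2.54, 4.76 and 3.45 CPM untreated and at 1.5, 3.35 and 2.40 CPM with AAV-shA4.

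Hba-a1 gave the same picture. In the AAV-shSCR mice it was at 4.19, 0.447, 1.57, 2.83 and 0.234 CPM. The AAV-shA4 SCA7 mice had 0.591, 1.1, 1.21, 0.626 and 1.19 CPM and the WT mice of 25w 0.314, 0.445, 0.869 and 0.509 CPM. Replicates 1, 3 and 4 of AAV-shSCR again exceeded all other late mice, and replicate 5 was the lowest of the whole series. The same 3 mice were the highest of the late groups for Hba-a2 (2.12, 1.28 and 1.34 CPM), Hbb-bt (2.73, 1.40 and 1.77 CPM) and Alas2 (1.25, 0.436 and 0.772 CPM). The sum of the 4 globins ran from 2.01 to 25.4 CPM over the 20 mice, 12.6-fold, with a median of 4.77 CPM. The ratio of beta to alpha globin moved less, from 2.18 to 6.45 with a median of 2.71.

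Calprotectin was highest in a different mouse. S100a9 was at 0.552, 0.670, 5.08, 1.49 and 0.521 CPM in AAV-shSCR replicates 1 to 5, at 1.23, 1.28, 1.48, 1.13 and 2.19 CPM in the AAV-shA4 SCA7 mice and at 0.665, 2.22, 1.92 and 0.712 CPM in the WT mice of 25w. S100a8 followed it, with 0.262, 0.614, 3.03, 1.17 and 0.260 CPM in the AAV-shSCR mice. Replicate 3 thus stood above every other mouse in both genes. Replicate 1, which had the most globin mRNA of the series, had one of the lowest levels of S100a8.

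Lcn2 was set apart by the untreated WT mice of 9w. They had 14.2, 22.6 and 1.78 CPM, whereas the WT mice with AAV-shA4 had 0.268, 0.259 and 0.642 CPM. No mouse of 25w exceeded 1.48 CPM: the ranges were 0.153 to 0.759 CPM in WT mice, 0.145 to 1.48 CPM with AAV-shSCR and 0.219 to 1.35 CPM with AAV-shA4. All 3 untreated mice of 9w were therefore above the other 17 mice, and they differed among themselves by 12.7-fold. The libraries of 9w and 25w were fitted apart, and their levels were not tested against each other.

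Ranked by their means, the 5 groups overlapped. Mean levels were highest in the AAV-shSCR group for 7 of the 8 transcripts, all but Lcn2. For these 7, the ranges of all 4 pairs of neighbours in the order overlapped, and for Lcn2 those of 3 of 4, the exception being the step to the untreated WT mice of 9w.

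The first comparison asked whether AAV-shA4 itself changed gene expression in WT cerebellum at 9w. All 8 transcripts were lower with AAV-shA4, where 49.9% of the 14733 genes tested were higher and the rest lower. A gene was called where edgeR's quasi-likelihood test gave an adjusted p under 0.05 together with a change of more than 1.3-fold. By this limit 0 of the 8 were called, as were 0.0543% of all genes (8 genes, and 50 by DESeq2). All 8 passed the filter on low counts in this and in the late comparisons. The median log2 fold change of the 8 was -0.90, against -9.9e-05 over all genes tested. For Lcn2 the log2 fold change was -5.05 ± 0.84 (SE), with an adjusted p of 0.0642 in edgeR. The call turned with the fit: it was made by DESeq2 (adjusted p = 0.000364), and leaving out untreated replicate 3, the mouse with 1.78 CPM, brought the adjusted p in edgeR to 5.9e-05. Over all alternatives the adjusted p ran from 5.9e-05 to 0.35 and the log2 fold change from -5.60 to -4.36.

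Hbb-bt was also lower without overlap, at 0.241, 0.415 and 0.475 CPM with AAV-shA4 and 0.594, 1.20 and 1.07 CPM untreated. Its log2 fold change was -1.34 ± 0.36 (SE), with an adjusted p of 0.252 in edgeR. Groups did not overlap for these 2 of the 8 genes, and for 16% of all genes tested. The exact two-sided permutation test gave p = 0.1 for both, which is the smallest value that 3 against 3 mice allow. The log2 fold changes of the other 6 were -0.57 for Hbb-bs, -0.65 for Hba-a2, -0.80 for Hba-a1, -0.85 for S100a9, -0.96 for Alas2 and -0.98 for S100a8, and their groups overlapped. An unadjusted p under 0.05 was reached by 3 of the 8 (Lcn2, Hbb-bt and Hba-a1) and by 11.1% of all genes.

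The second comparison set SCA7 mice with the control hairpin against untreated WT mice of 25w. All 8 transcripts had a positive fold change (50.5% of all genes), and Hbb-bs was the 1 of 8 that was called, where 1.35% of the 14862 genes tested were called higher and 4.02% in either direction. Its log2 fold change was 1.81 ± 0.54 (SE), with an adjusted p of 0.0301 in edgeR. The mice overlapped: 3 of 5 AAV-shSCR mice were above the median of the WT mice, and the exact two-sided permutation test on log2(CPM + 0.1) gave p = 0.159, where 5 against 4 mice allow 0.0159. The call rested on single mice. Without AAV-shSCR replicate 1 the log2 fold change was 1.20 and the adjusted p in edgeR 0.0901, and the call was also lost without AAV-shSCR replicate 4, without WT replicate 1, 2 or 4, and with robust estimation of the spread (adjusted p = 0.0847). Without AAV-shSCR replicate 5, which had little globin mRNA, 5 of the 8 genes were called, and without replicate 2, 3 were.

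The other globins had like fold changes that missed the threshold in edgeR. The log2 fold change was 1.79 ± 0.61 (SE) for Hba-a1 (adjusted p = 0.0572), 1.49 ± 0.55 for Hbb-bt (adjusted p = 0.0774), 1.41 ± 0.63 for Hba-a2 (adjusted p = 0.150) and 1.15 ± 0.63 for Alas2 (adjusted p = 0.244). DESeq2 called 3 of the 8 (Hbb-bs, Hba-a1 and Hbb-bt). For S100a8 the log2 fold change was 0.74, for Lcn2 0.46 and for S100a9 0.30. These last 3 turned negative without AAV-shSCR replicate 3 (-0.18, -0.53 and -0.76), and the mean difference of S100a9 on the log2(CPM + 0.1) scale was negative with all mice (-0.11). The median log2 fold change of the 8 was 1.28, against 0.0017 over all genes. Groups overlapped for all 8, where 16.8% of all genes did not overlap, and an unadjusted p under 0.05 was reached by 4 of the 8 and by 28.7% of all genes.

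The remaining comparisons asked where AAV-shA4 left the SCA7 cerebellum relative to WT and to the control hairpin. They share mice with the second, and the values are given side by side. Against untreated WT mice all 8 fold changes were positive in edgeR (52.2% of all genes) and 0 were called (3.45% of all genes were called). An unadjusted p under 0.05 was reached by 0 of the 8 and by 26.6% of all genes, and groups overlapped for all 8, where 13.4% of all genes did not overlap. Hbb-bs had a log2 fold change of 0.76 ± 0.54 (SE) with an adjusted p of 0.407 in edgeR, and all 5 AAV-shA4 mice lay above the median of the WT mice. In the exact two-sided permutation test, 1 of 32 such tests over 8 genes and 4 comparisons with no adjustment, the p of Hbb-bs was 0.0317 and that of Hbb-bt 0.0476. The AAV-shA4 mice were closer together than the AAV-shSCR mice: the highest Hbb-bs level was 2.02-fold the lowest with AAV-shA4 and 10.1-fold with AAV-shSCR. Whether that spread differs was not tested.

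Between both SCA7 groups 7 of the 8 transcripts were lower with AAV-shA4 (50.1% of all genes were higher), and 0 were called by edgeR or DESeq2. In this comparison edgeR called 0% of all genes (DESeq2 called 5 genes), and an unadjusted p under 0.05 was reached by 8.22% of all genes and by 1 of the 8, Hbb-bs. Groups overlapped for all 8, and 1.51% of all genes did not overlap. The log2 fold change of Hbb-bs was -1.05 ± 0.48 (SE), with an adjusted p of 0.597 in edgeR, and every AAV-shA4 mouse lay below the median of the AAV-shSCR mice while within their range. The exact permutation test gave p = 0.429. S100a8 (-0.31), S100a9 (-0.21) and Lcn2 (0.36) changed sign when single mice were left out, and on the log2(CPM + 0.1) scale the mean differences of S100a8 (0.20) and S100a9 (0.33) were positive.

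**Figure D3:**
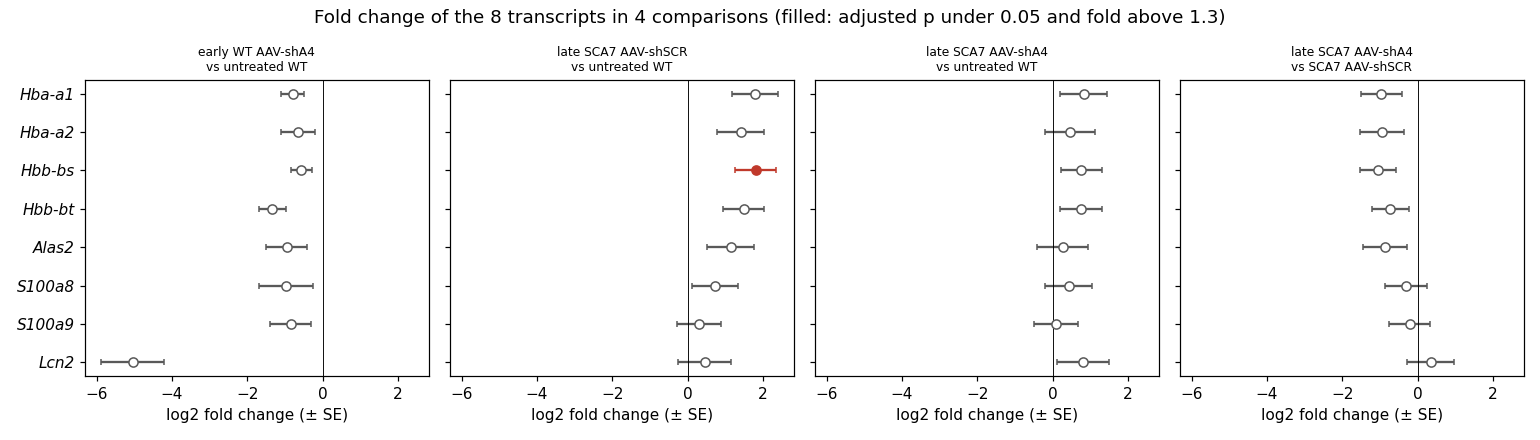
Log2 fold change of the 8 transcripts with its SE in edgeR's fit, for the 4 comparisons. The filled red point is the 1 call, Hbb-bs in AAV-shSCR-treated SCA7 against untreated WT mice (1.81 ± 0.54); open points were not called, among them Lcn2 at 9w (-5.05 ± 0.84).

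The transcripts fell into sets that varied together from mouse to mouse. Deviations from the group means of log2(CPM + 0.1) were correlated for 7 pairs over the 20 mice, with permutations within groups and adjustment over the 7 pairs. Hba-a1 and Hbb-bs, which lie on different chromosomes, had r = 0.954 and rho = 0.874 (permutation p = 2e-05 and 7e-05, adjusted 7e-05 and 0.00024). For Hbb-bs and Hbb-bt r was 0.931 and rho 0.841 (permutation p = 0.00011 and 0.00047, adjusted 0.00026 and 0.00086). For Hbb-bs and Alas2 r was 0.865 and rho 0.821 (permutation p = 0.00071 and 0.00049, adjusted 0.0012 and 0.00086). The calprotectin pair S100a8 and S100a9 had r = 0.926 and rho = 0.913 (permutation p = 1e-05 for both, the smallest that 100000 resamples can give, adjusted 7e-05). Paralogs share reads, which Hba-a1 and Hbb-bs, Alas2 and the calprotectin pair do not.

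These 4 relations held within the 14 late mice (r = 0.967, 0.939, 0.880 and 0.958) and without the 2 mice farthest from the median of the first gene (r = 0.891, 0.847, 0.717 and 0.949), each r with an adjusted permutation p of at most 0.035. Within the 6 early mice r was 0.830, 0.847, 0.739 and 0.877, with adjusted permutation p from 0.191 to 0.196. Only 36 rearrangements of the early mice exist, so that no unadjusted p can be below 0.0278.

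Globin and neutrophil transcripts were less tied. Hbb-bs and S100a8 had r = 0.345 and rho = 0.513 (permutation p = 0.311 and 0.0657, adjusted 0.363 and 0.0766). Without the 2 mice with Hbb-bs farthest from the median, AAV-shSCR replicates 1 and 4, r was 0.854 and rho 0.787 (permutation p = 0.0013 and 0.0038, adjusted 0.0031 and 0.0066). Of these, replicate 1 had the most Hbb-bs (16.3 CPM) and little S100a8 (0.262 CPM), while replicate 4 (9.21 and 1.17 CPM) was exceeded by 1 mouse of its group in each gene. Both were left out together, so the pooled value depends on this pair. Within the 14 late mice r was 0.222, and within the 6 early mice 0.950, neither past the threshold.

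Lcn2 showed no such tie to Hbb-bs (r = 0.088, rho = 0.134, permutation p = 0.779 and 0.610, adjusted 0.779 and 0.610; r = 0.444 without the same 2 mice). It went with S100a8 (r = 0.586, rho = 0.585, permutation p = 0.0079 and 0.010, adjusted 0.011 and 0.014), also within the 14 late mice (r = 0.739, adjusted permutation p = 0.0066). Within the 6 early mice, which include the mice with high Lcn2, r was 0.358 with an adjusted permutation p of 0.584. Without the 2 mice farthest from the median of S100a8, AAV-shSCR replicate 3 and WT AAV-shA4 replicate 1, r was 0.476 with an adjusted permutation p of 0.101, so that passing the threshold rests on those mice.

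**Figure D4:**
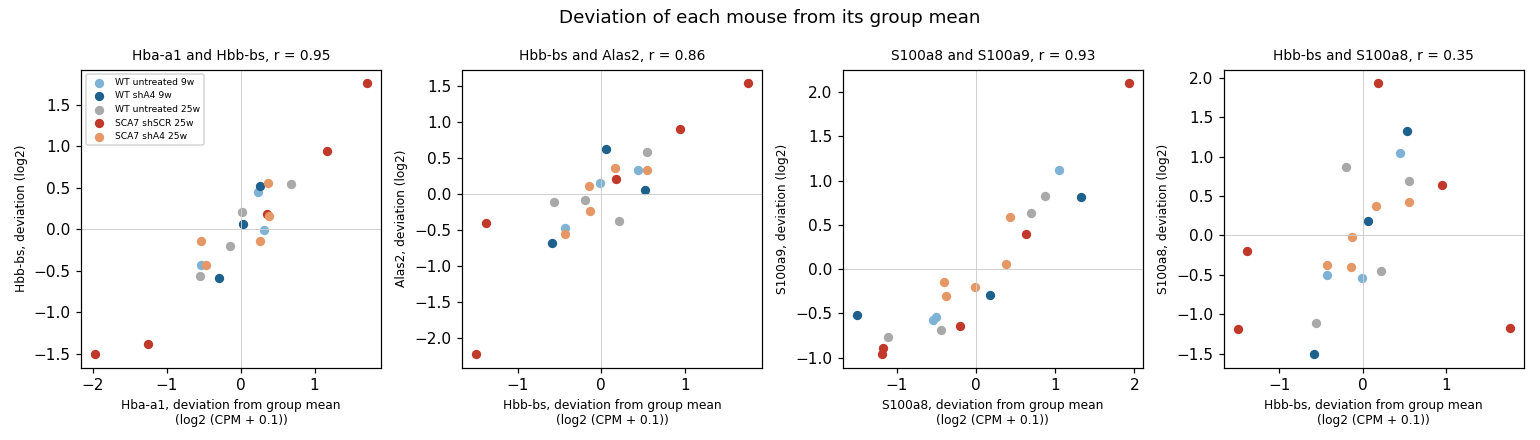
Deviation of each of the 20 mice from the mean of its group, on the log2(CPM + 0.1) scale, for 4 pairs of transcripts. Colours mark the 5 groups, and r is Pearson's correlation over all mice: 0.95, 0.86 and 0.93 within the erythroid and calprotectin sets and 0.35 between Hbb-bs and S100a8.

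Genes whose deviations were most like those of Hbb-bs, S100a8 and Lcn2 were sought among 14018 protein-coding genes with a mean of at least 0.5 CPM. This is a description over 20 mice, where high values of r occur among so many genes. For S100a8 the nearest was Ngp, a neutrophil granule protein (r = 0.914), followed by Gtpbp2, Supt20, Ptpru and Tanc1 (0.853 to 0.834). For Hbb-bs they were Clasrp (0.876), Ppp6r1, Gtpbp3, Csf3r, the receptor of granulocyte colony-stimulating factor (0.761), and Polm (0.743). For Lcn2 they were Cntnap1 (0.869), a protein of the axon's paranodal junction, Fmn2, Mapt, which encodes tau, Mink1 and Cplx2 (0.795). Apart from Ngp and Csf3r, which spanned 0.130 to 3.61 and 2.04 to 3.98 CPM, these genes varied little between mice, such as Mapt from 621.8 to 705.7 CPM.

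Further markers of blood cells were near the limit of detection. Of 17 erythroid genes 16 had a matching symbol, and 6 passed the filter on low counts in either set of libraries. The erythroid factor Gata1 was at 0 to 0.0968 CPM, with no read in 14 of the 20 libraries. The embryonic globins Hba-x, Hbb-bh1 and Hbb-bh2 had no read in any library. The 3 most abundant of the list, Fech (75.3 CPM), Bpgm (63.5 CPM) and Slc25a37 (28.8 CPM), serve haem and red cell metabolism and varied little between mice, such as Fech from 69.5 to 83.6 CPM. Slc25a37, the mitochondrial iron importer, was lower, with a log2 fold change of -0.19 with AAV-shSCR against WT mice (adjusted p = 0.0259 in edgeR), short of the fold limit. Slc4a1, the chloride and bicarbonate exchanger of the red cell membrane, was at 3.20, 2.51, 2.93, 2.60 and 2.29 CPM with AAV-shSCR and at 1.94, 1.81, 1.90 and 1.70 CPM in WT mice of 25w. It rose by 0.56 ± 0.14 (SE) on the log2 scale with an adjusted p of 0.0147 in edgeR and without overlap. Of all genes 1.35% were called higher and 16.8% did not overlap. Of the 6 erythroid genes tested in this comparison 2 were higher and 4 lower (median log2 fold change -0.07). Slc4a1 was the 1 call in the erythroid list, and it was called in each of the 9 fits that left out 1 mouse. With AAV-shA4 it was at 1.95, 2.78, 2.03, 1.75 and 2.53 CPM (log2 fold change 0.27, adjusted p = 0.261 in edgeR). AAV-shSCR replicates 2 and 5, which had little globin mRNA, were above all 4 WT mice in Slc4a1.

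Neutrophil genes other than calprotectin were as scarce. Of 18 on the list 4 passed the filter in the early and 6 in the late libraries, and 0 were called in any comparison. Mmp9 (mean 2.80 CPM), Csf3r (2.79 CPM) and Ngp (0.990 CPM) were the most abundant. AAV-shSCR replicate 3, the mouse with the most S100a8 and S100a9, also had the most Ngp (3.61 CPM) and, of 2 genes picked after their values were seen, the most Mpo (0.847 CPM, against 0 to 0.497 CPM elsewhere) and much Ltf (1.94 CPM), where only SCA7 AAV-shA4 replicate 2 had more (2.66 CPM). The summed level of the 18 genes was 5.78 to 16.3 CPM with AAV-shSCR, 7.73 to 11.8 CPM with AAV-shA4 in SCA7 mice and 6.59 to 12.1 CPM in WT mice of 25w. In the 9w mice it was 6.00 to 9.67 CPM untreated and 5.60 to 7.31 CPM with AAV-shA4. Mmp9 and Csf3r, at means of 2.84 and 2.22 CPM in the untreated mice, weighed most in it. Untreated replicate 2, with the most Lcn2 (22.6 CPM), had the highest sum (9.67 CPM), S100a8 (1.44 CPM) and S100a9 (1.95 CPM) of the 9w mice. Untreated replicate 1, with 14.2 CPM of Lcn2, had a sum of 6.00 CPM, S100a8 at 0.424 CPM and S100a9 at 0.551 CPM. The neutrophil markers Ly6g and Cxcr2 were at most 0.143 CPM in every mouse, with no read in 11 of the 20 libraries each.

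Of 24 acute-phase and cytokine-response genes 15 were tested at 9w. With AAV-shA4 13 were lower and 2 higher, with a median log2 fold change of -0.09, where 49.9% of all genes were higher. Of the 15 genes 0 were called, as were 0.0543% of all genes. An unadjusted p under 0.05 in edgeR was reached by 3 and by 11.1% of all genes. The 3 are named here for that: Lrg1, a secreted acute-phase glycoprotein (log2 fold change -1.13), Il1r1, the interleukin 1 receptor (-0.47), and C3, the central complement component (1.74). Lrg1 was at 1.95, 2.42 and 1.21 CPM in the untreated mice and at 0.637, 0.571 and 1.34 CPM with AAV-shA4, so that the same untreated replicates 1 and 2 were high as for Lcn2 while the groups overlapped. The 3 most abundant genes of the list, Cp (33.4 CPM), Nfkbia (28.7 CPM) and Vcam1 (20.7 CPM), were not called in any comparison, and Cp, the plasma ferroxidase ceruloplasmin, was higher in both SCA7 groups than in WT mice by less than the fold limit (log2 fold changes 0.28 and 0.31, adjusted p = 0.00169 and 0.000799 in edgeR). In the late mice Serpina3n, a serine protease inhibitor made by reactive astrocytes, was the 1 called gene of 16 tested: it rose by 0.45 ± 0.11 (SE) on the log2 scale with AAV-shSCR (adjusted p = 0.00853 in edgeR) and by 0.47 ± 0.11 with AAV-shA4 (adjusted p = 0.00716 in edgeR) against WT mice. Of all genes 4.02% and 3.45% were called in these comparisons. Lcn2 was not called in either (log2 fold changes 0.46 and 0.81).

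Haem and iron genes and the receptors of calprotectin and haemoglobin gave no call. Of 17 haem and iron genes tested 9 were higher and 8 lower with AAV-shSCR against WT mice (median log2 fold change 0.03). Their summed level was 1654 to 1808 CPM with AAV-shSCR, 1668 to 1831 CPM with AAV-shA4 and 1861 to 1967 CPM in WT mice of 25w, so that neither SCA7 group overlapped with the WT mice. Fth1, the heavy chain of the iron store ferritin, and Alad, an enzyme of haem synthesis, picked after their values were seen, were lower than in WT mice by less than the fold limit. Their log2 fold changes were -0.31 and -0.28 with AAV-shSCR (adjusted p = 0.000175 and 0.00105 in edgeR) and -0.27 and -0.30 with AAV-shA4 (adjusted p = 0.000811 and 0.00056 in edgeR). Fth1 was the most abundant of the 17 genes and weighed most in their sum. It alone averaged 1044 CPM in WT mice of 25w, 841 CPM with AAV-shSCR and 868 CPM with AAV-shA4. Of the 7 receptor genes 2 were higher and 5 lower with AAV-shSCR against WT mice. With AAV-shA4 6 were higher and 1 lower against WT mice, and 4 were higher and 3 lower against AAV-shSCR. Among 15 endothelial genes Emcn rose by 0.52 ± 0.08 (SE, adjusted p = 0.0003 in edgeR) and Cldn5, the tight junction protein of the blood-brain barrier, fell by 0.40 ± 0.08 (adjusted p = 0.00358 in edgeR) with AAV-shSCR. With AAV-shA4 they rose by 0.49 and fell by 0.63 (adjusted p = 0.000586 and 7.2e-05 in edgeR). The call of Cldn5 with AAV-shSCR was lost without AAV-shSCR replicate 5 or WT replicate 3. Of the 15 endothelial genes 11 were higher and 4 lower in each comparison of SCA7 with WT mice. An unadjusted p under 0.05 in edgeR was reached by 8 with AAV-shSCR and by 11 with AAV-shA4, and by 28.7% and 26.6% of all genes. Calls were made for 4.02% and 3.45% of all genes. The summed endothelial level, in which genes went both ways, was 503 to 557 CPM with AAV-shSCR, 530 to 566 CPM with AAV-shA4 and 505 to 561 CPM in WT mice of 25w. Platelet, lymphocyte, monocyte and macrophage, meningeal, choroid plexus, MHC class II and further globin genes (10, 10, 8, 7, 8, 4 and 8 on the lists) held 0 calls in the 4 comparisons by edgeR. Whether any of these lists has a part in the differences of the 8 transcripts was not tested, and in bulk tissue fewer cells of a type and less RNA per cell cannot be told apart.

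**Figure D5:**
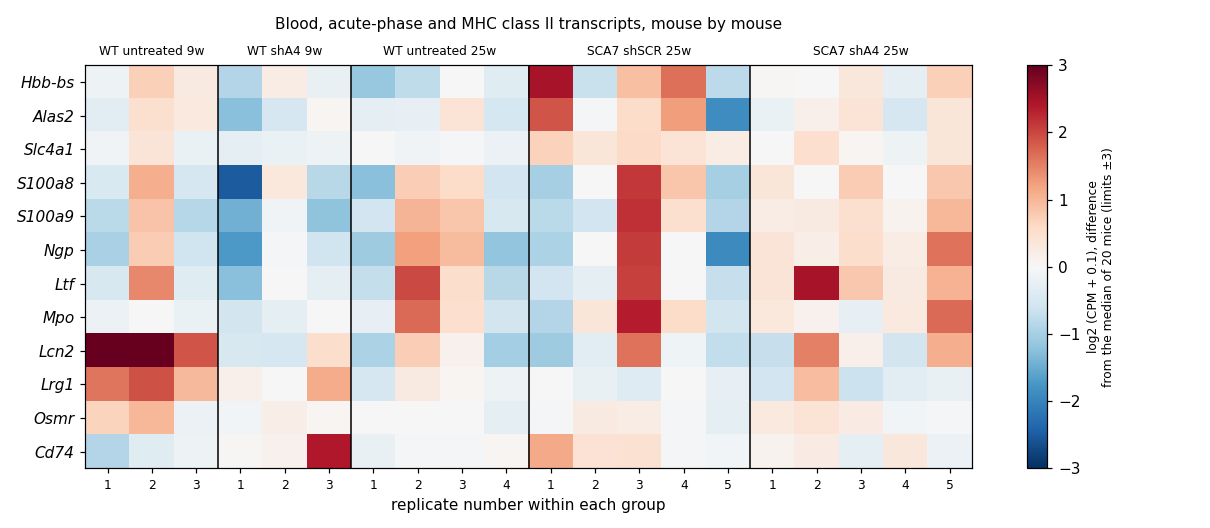
Level of 12 transcripts in each mouse as the difference in log2(CPM + 0.1) from the median of the 20 mice (colour, limited to ±3), with mice ordered by group and replicate number. Globin and Alas2 are high in AAV-shSCR replicates 1 and 4, S100a8, S100a9, Ngp and Mpo in replicate 3, Lcn2 and Lrg1 in untreated WT mice of 9w, and Cd74 (MHC class II) in WT AAV-shA4 replicate 3.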

How the data were processed

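RNA of 1 cerebellum per library was sequenced as stranded, poly(A)-selected 50-base single reads. Per the labels and methods the authors trimmed reads (cutadapt 1.10), removed ribosomal reads (Bowtie2 2.2.8), aligned the rest to mm10 (STAR 2.5.3a) and deposited raw read counts per gene (HTSeq 0.6.1p1). The strand setting is not given in the sources used here. Groups came from the labels. The deposited counts of protein-coding genes (minimum count 10, total 15) were fitted in edgeR 4.0.16 (TMM, quasi-likelihood, Benjamini-Hochberg), early and late libraries apart; a call needed adjusted p under 0.05 and fold change above 1.3. DESeq2 1.42.0 was an alternative. Exact and permutation tests were two-sided on log2(CPM + 0.1). The edgeR fits of the early and late libraries and the correlation test were tried on simulated data, and DESeq2 was not. The 8 genes, 14 lists (2 genes without a matching symbol) and tests were chosen with earlier results of these data known. Genes named besides the 8 were called list genes and the 5 most like Hbb-bs, S100a8 and Lcn2. The 3 most abundant of the erythroid, neutrophil and acute-phase lists were named as well. Gata1, Hba-x, Hbb-bh1, Hbb-bh2, Ly6g and Cxcr2 were taken from the lists outside these rules. Others, apart from the target Atxn7 and Cd74 in a figure, are marked where they are named. Gene models were GENCODE on GRCm38, promoters RefSeq GRCm38.p6. The limit given for a count of 0 covers counting error only, whereas SDs, SEs and p-values include the spread between mice.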

Additional observations from a re-analysis of the deposited data

Results flagged for a closer look

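In groups of 4 and 5 mice, a mouse was marked where its gap to the nearest other mouse took up more of the group's range than Dixon's 95% critical value. Of 24 groups tested, 8 transcripts in each of 3 late groups, 3 held such a mouse. The gaps were taken on CPM, not on the log scale used for the correlations and permutation tests, and were not tested on that scale. Dixon's value assumes normally distributed values, which was not checked for CPM. Several of the transcripts also varied together, so the groups are not independent. How many marks chance alone would give therefore cannot be said, and the marks serve only to point out mice. S100a9 in SCA7 AAV-shSCR replicate 3 was at 5.08 CPM, with the next mouse at 1.49 CPM and a gap of 0.788 of the range. Lcn2 in the same mouse was at 1.48 CPM, with the next at 0.372 CPM and a gap of 0.830 of the range. Hba-a2 in SCA7 AAV-shA4 replicate 5 was at 0.845 CPM, with the next at 0.503 CPM and a gap of 0.728 of the range. Whether these differences arose in the mouse or in the preparation was not tested.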

How the results depend on the processing

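At 9w, 0 of the 8 transcripts were called and the alternatives with no filter on low counts, all annotated genes, DESeq2, all 20 libraries in one fit and the replicate number as a block each called 1, Lcn2, as did 1 of the fits that left out a mouse (0 to 1). For AAV-shSCR against WT mice, 1 was called, and robust dispersion and the replicate block called 0, all 20 libraries in one fit 2, DESeq2 3 and the fits without 1 mouse 0 to 5. Under these settings and those left unnamed, 0 of the 8 were called in both comparisons of AAV-shA4-treated SCA7 mice. Over all genes at 9w, 8 were called, and 26 with no filter, 19 with robust dispersion, 37 with the replicate block, 16 of all annotated genes, 50 with DESeq2 and 20 with all libraries in one fit. The cause was not tested.

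Deviations of same-numbered mice of different groups had correlations of -0.096 to 0.124 at 9w and -0.312 to 0.554 at 25w. The highest were 0.554 and 0.334, for replicates 1 and 2 of the AAV-shA4 SCA7 and WT mice of 25w. Mice with different numbers were not correlated, so these values cannot tell whether the replicate numbers pair the mice. Under that block S100a8 and S100a9 turned sign between both SCA7 groups (0.041 and 0.15), the call of Hbb-bs was lost (log2 fold change 1.67, adjusted p = 0.063 in edgeR), and that of Lcn2 was made (-4.81, adjusted p = 0.0202 in edgeR).

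Leaving out 1 mouse turned the sign of an uncalled value 10 times, given here with the lowest and highest log2 fold change over all such fits. S100a9 at 9w ran from -1.49 to 0.048 (turned without untreated replicate 2). For AAV-shSCR against WT mice, S100a8 ran from -0.18 to 1.09, S100a9 from -0.76 to 0.62 and Lcn2 from -0.53 to 0.99 (all turned without AAV-shSCR replicate 3). For AAV-shA4 against WT mice S100a9 ran from -0.15 to 0.42 (turned without AAV-shA4 replicate 5, WT replicate 1 or WT replicate 4). Between the SCA7 groups S100a8 ran from -0.56 to 0.60 and S100a9 from -0.43 to 0.86 (turned without AAV-shSCR replicate 3), and Lcn2 from -0.088 to 1.35 (turned without AAV-shA4 replicate 2).

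Within the 6 early mice r was 0.830 (Hba-a1 with Hbb-bs), 0.847 (Hbb-bs with Hbb-bt), 0.739 (Hbb-bs with Alas2), 0.877 (S100a8 with S100a9) and 0.358 (S100a8 with Lcn2), none past the threshold. Without the 2 farthest mice r was 0.854 for Hbb-bs with S100a8, past the threshold, and 0.476 for S100a8 with Lcn2, no longer past it. Other pseudocounts (0.5 and 0.01 CPM) left each correlation on its side of the threshold. The 8 transcripts had 0 to 1054 reads per gene and library, and in the late libraries their biological coefficient of variation, which leaves counting error out, was 0.513 to 0.659. Whether depth or the spread between mice limited the calls was not tested.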
